A study of Homo sapiens with 27 samples.

Results

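The genes described here encode the collagens, the laminins and the integrin receptor chains of T47D cells, a luminal breast cancer cell line, in which truncated forms of the transcription factor GATA3 were expressed. They were chosen by gene symbol alone: every row of the gene count table named as a collagen alpha chain, a laminin alpha, beta or gamma chain, or an integrin alpha or beta chain. This gave 82 of 26485 genes, namely 44 collagens, 12 laminins, 18 integrin alpha chains and 8 integrin beta chains. Of these, 49 had enough fragments to enter the test (21 collagens, 8 laminins, 13 alpha chains and 7 beta chains), among 14789 genes tested in all.

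RNA-seq was performed on 4 T47D lines with 3 libraries each. The control line carried the empty pHAGE lentiviral vector, and the other lines carried pHAGE with a GATA3 mutant: Splice del (an X308 splice site deletion), C321fs (a frameshift at C321) or A333fs (a frameshift at A333). Splice del loses the wild-type sequence of the second zinc finger of GATA3, and C321fs and A333fs lose it in part. All 4 lines were puromycin-selected stable pools below passage 10, and every mutant carried a 3xTy1 tag. Wild-type GATA3 was still expressed in each of them, so that the comparisons are of a mutant added to wild-type GATA3. A single pool was described for each mutant, so the spread between libraries is the spread within a pool, and independently made pools of the same mutant were not compared. The sample labels state that cells were kept on collagen-treated plates in DMEM-F12 with ascorbic acid, whereas the study's methods name DMEM high glucose medium and no coating.

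Collagens are triple-helical matrix proteins that form fibrils (types I, III, V, XI and XXVII), decorate fibrils (types IX, XII, XVI and XXI) or build the sheet of basement membranes (type IV). Laminins are trimers of an alpha, a beta and a gamma chain and are the cell-binding proteins of the basement membrane under mammary epithelium. Integrins pair an alpha with a beta chain at the cell surface and bind these proteins or soluble latent growth factors, and integrin alpha6beta4 anchors epithelial cells to laminin through hemidesmosomes.

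The 12 libraries held between 27872208 and 36788024 counted fragments. GATA3 itself was read first, as the targeted gene. Levels within a gene are given as CPM, the count relative to the library's total after TMM scaling. GATA3 CPM was 1247, 1339.7 and 1257 in the control libraries, 962, 992 and 1050.5 in the Splice del line, 1142, 1130.2 and 1155 in C321fs and 1016, 1006 and 1028 in A333fs. Endogenous and mutant GATA3 reads share 1 row of the table, so this value does not show the mutants apart from the wild type, and it was not higher in any mutant line than in the control. All 15 luminal markers were tested and present in every line, with a summed level between 21086 and 26332 TPM. Of these, 3 were called higher and 3 lower in the Splice del line, 2 lower in C321fs, and 3 higher with 2 lower in A333fs. Over all tested genes, 6.21%, 4.63% and 5.46% were called higher in Splice del, C321fs and A333fs, and 4.53%, 2.26% and 6.81% lower. The keratin KRT8 gave log2 fold changes of -1.02, -0.84 and -0.49 in these lines, and the secretory marker AGR2 gave 0.99, 0.52 and 0.87. Of 10 basal and myoepithelial markers 6 were tested, with 1 higher in C321fs and, in A333fs, 2 higher (KRT14, at most 21 fragments, and ACTA2, 0.62) and 1 lower (TAGLN, -0.78). With each library's trend on GC content and exon length removed, the basal calls became 0 in C321fs. In A333fs 3 basal markers were then higher and 0 lower, so TAGLN lost its call. Luminal calls became 3 higher and 2 lower in Splice del, 1 lower in C321fs and 2 higher in A333fs. The part of such shifts in the results on matrix and integrin genes was not tested. Among markers of other cells, PTPRC, CD3D and MS4A1 (leukocytes), TEK and EMCN (endothelium) and FAP, TWIST2 and TCF21 (fibroblasts) had no fragment in any library, and PDGFRA, PDGFRB, PRRX1, MMP2 and PECAM1 had at most 2. Other markers of these cells were present, and 6 of 14 for fibroblasts, 3 of 10 for leukocytes and 1 of 8 for endothelium were tested. The last, CLDN5, was called lower in A333fs than in the control (-1.01), a call lost with the trend removed (-0.54). In bulk RNA, more or fewer cells with a transcript and more or less of it per cell cannot be told apart.

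The promoters of 6 members are shown, picked by hand from the members called in the comparisons between lines. Other called members with a promoter entry are not shown, among them ITGB8 and COL5A1, whose windows held none of the letters marked here.
Each line gives the 250 bases before the RefSeq gene start, 5′ to 3′ on the gene's strand, from GRCh38.p14, whose starts can differ from the gene bounds of the count table given with each gene.
Capitals mark the hexamers AGATAA or AGATAG or TGATAA or TGATAG, or the shorter AGAT, on either strand, letters known as GATA factor motifs.
The shorter form lies inside the first pair of hexamers.
COL12A1 (chr6:75206054-75206303, minus strand) was lower in all 3 mutant lines.
COL21A1 (chr6:56247581-56247830, minus strand) and ITGB6 (chr2:160200273-160200522, minus strand) were higher in all 3.
COL27A1 (chr9:114155287-114155536, plus strand), COL11A1 (chr1:103108523-103108772, minus strand) and ITGAM (chr16:31259725-31259974, plus strand) were higher in Splice del and A333fs.
COL12A1: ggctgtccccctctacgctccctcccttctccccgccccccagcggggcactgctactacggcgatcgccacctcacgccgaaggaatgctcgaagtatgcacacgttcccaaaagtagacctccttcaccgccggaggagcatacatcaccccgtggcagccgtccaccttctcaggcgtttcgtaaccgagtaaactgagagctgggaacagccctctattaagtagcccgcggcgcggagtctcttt
COL21A1: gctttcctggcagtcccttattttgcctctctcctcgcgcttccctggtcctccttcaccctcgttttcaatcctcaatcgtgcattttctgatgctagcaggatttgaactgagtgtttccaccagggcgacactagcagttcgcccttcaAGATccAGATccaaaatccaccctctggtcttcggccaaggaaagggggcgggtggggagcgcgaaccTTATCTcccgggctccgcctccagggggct
ITGB6: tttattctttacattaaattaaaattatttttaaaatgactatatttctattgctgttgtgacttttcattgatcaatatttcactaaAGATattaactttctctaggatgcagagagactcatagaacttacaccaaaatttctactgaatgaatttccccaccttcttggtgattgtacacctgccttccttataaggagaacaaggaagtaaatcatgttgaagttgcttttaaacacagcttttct
COL27A1: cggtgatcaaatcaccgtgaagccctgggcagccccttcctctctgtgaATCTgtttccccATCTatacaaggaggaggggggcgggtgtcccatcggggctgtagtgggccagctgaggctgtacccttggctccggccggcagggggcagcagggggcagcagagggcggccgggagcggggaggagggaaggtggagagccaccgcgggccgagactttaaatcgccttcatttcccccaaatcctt
COL11A1: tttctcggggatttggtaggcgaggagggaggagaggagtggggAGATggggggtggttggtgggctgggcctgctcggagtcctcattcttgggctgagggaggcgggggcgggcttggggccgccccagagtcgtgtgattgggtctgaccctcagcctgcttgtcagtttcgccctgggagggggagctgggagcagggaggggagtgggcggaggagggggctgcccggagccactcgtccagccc
ITGAM: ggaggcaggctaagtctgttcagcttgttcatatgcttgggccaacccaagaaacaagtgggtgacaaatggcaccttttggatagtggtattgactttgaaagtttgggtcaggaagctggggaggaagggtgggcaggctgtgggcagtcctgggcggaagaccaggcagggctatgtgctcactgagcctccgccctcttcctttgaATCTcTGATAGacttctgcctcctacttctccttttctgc

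The COL12A1 window held none of these letters, the COL21A1 window held AGATAA, read from the opposite strand, at -30 from the start, and the ITGAM window held TGATAG at -35. In windows that also include the first 50 bases of the gene, at least 1 of the 4 hexamers was present in 17.2% of the 58 members with a promoter entry and in 25.0% of all 35116 promoters of that table. AGAT was present in 51.7% of the members and in 69.9% of all promoters. Of the 14 members with an entry that were called in at least 1 of 6 comparisons, 21.4% held a hexamer and 57.1% held AGAT. These are letter matches only, in windows of 64.8% median GC content for the members against 58.7% for all promoters, and no binding data were used here.

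Levels between genes are compared per length, as TPM over the 12 libraries. The highest collagen transcripts were COL9A2 (26.5 TPM), a chain of fibril-associated type IX collagen, COL12A1 (16.5 TPM), and COL1A1 (16.5 TPM), the alpha1 chain of type I collagen. COL1A2, whose product normally completes the type I trimer, had at most 1 fragment in any library. COL9A2 was accompanied by COL9A3 (5.55 TPM), while COL9A1, the third chain of type IX, had at most 4 fragments. Type IV collagen was represented by COL4A5 (5.05 TPM) and, far lower, by COL4A6 (0.329 TPM), and the widespread chains COL4A1 and COL4A2 had at most 3 and 7 fragments.

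The 3 highest laminin transcripts stood above every collagen, with LAMB2 at 79.2 TPM, LAMA5 at 65.6 TPM and LAMB1 at 38.3 TPM. In laminin-511 the gamma chain LAMC1 (8.41 TPM) was the lowest of the 3 chains, beside LAMA5 and LAMB1. LAMA3 stood at 5.62 TPM and LAMB3 at 2.52 TPM. The beta integrins ITGB1 (125 TPM), ITGB5 (102 TPM) and ITGB4 (53.8 TPM) exceeded every alpha chain. The alpha chains were led by ITGA3 (26.4 TPM), ITGAV (25.03 TPM) and ITGA6 (20.97 TPM), which overlapped between libraries, followed by ITGAE at 12.6 TPM and ITGA2 at 9.65 TPM. The 33 members outside the test had between 0 and 10 fragments in their highest library, among them COL17A1, ITGB3, ITGA4 and LAMA1, and no difference could be detected in them at this depth. COL11A2 is annotated on 7 sequences that include alternative haplotypes, so its level per length is uncertain.

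**Figure D1:**
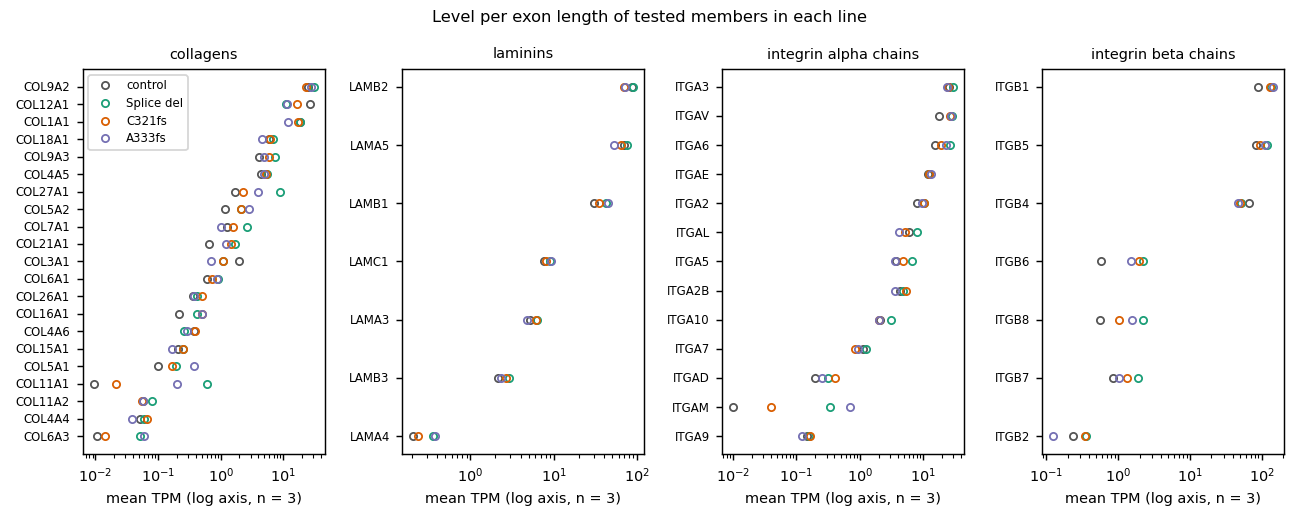
Mean level of 48 tested members in the 4 lines, in TPM on a log axis (n = 3 libraries per point, no error bars), in 4 panels for collagens, laminins, integrin alpha chains and integrin beta chains, ordered by level. Most members lie within a narrow range across lines, whereas COL11A1 and ITGAM spread over more than 10-fold, with control and C321fs at the low end.

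The first question was which members differed between a mutant line and the control. A member was called when edgeR's quasi-likelihood test gave a Benjamini-Hochberg adjusted p below 0.01 and the fold change was over 1.5, in 1 fit of all 12 libraries. In Splice del, 8 of the 49 tested members were higher and 3 lower, where 6.21% and 4.53% of all tested genes were called in those directions. In C321fs, 5 were higher and 3 lower, against 4.63% and 2.26% of all genes. In A333fs, 9 were higher and 6 lower, against 5.46% and 6.81% of all genes. These comparisons share the same 3 control libraries. The median log2 fold change of the tested members was 0.22 in the Splice del line, 0.06 in C321fs and -0.02 in A333fs, and that of all genes was 0.03, 0.02 and 0.01.

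With the fold limit set aside, 29 of the 49 members passed the adjusted p limit for any difference among lines, where 56.2% of all tested genes did. These were 12 collagens, 4 laminins, 7 alpha chains and 6 beta chains. The members called in all 3 comparisons with the control were COL12A1, COL3A1 and ITGB4, all lower, and COL5A2, COL21A1, ITGB6 and ITGB8, all higher. Those called in Splice del and A333fs but not in C321fs were COL27A1, COL11A1 and ITGAM, and each of these 3 also differed between C321fs and both other mutants when that difference was tested.

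Among the fibril-forming collagens, COL3A1 fell and COL5A2 rose in all 3 mutant lines. COL3A1 (chr2:188974373-189012746), which encodes type III collagen, stood at 4.95, 5.07 and 5.38 CPM in the control, 2.30, 2.28 and 2.68 in the Splice del line, 2.44, 2.29 and 2.82 in C321fs and 1.36, 1.95 and 1.59 in A333fs. Every mutant library was below every control library. The log2 fold changes were -1.09 ± 0.13 (SE) (adjusted p = 6.5e-06) in the Splice del line, -1.03 ± 0.13 (SE) (adjusted p = 2.2e-05) in C321fs and -1.65 ± 0.14 (SE) (adjusted p = 2.0e-07) in A333fs.

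COL5A2 (chr2:189031915-189179879), the alpha2 chain of type V collagen, which is known to regulate fibril diameter, lies beside COL3A1 on chromosome 2 with 19168 bases between the facing 3′ ends. It moved the other way, from 4.04, 4.17 and 3.58 CPM in the control to 6.14, 6.21 and 5.54 in the Splice del line, 6.15, 5.06 and 6.90 in C321fs and 8.71, 8.93 and 7.72 in A333fs, again without overlap with the control. Its log2 fold changes were 0.60 ± 0.12 (SE) (adjusted p = 0.00063), 0.62 ± 0.12 (SE) (adjusted p = 0.0007) and 1.10 ± 0.12 (SE) (adjusted p = 1.9e-06), the first of which no longer passed the fold limit (0.51) when each library's trend on GC content and exon length was removed. The Splice del call was also lost without control 3 (0.54), Splice del 1 (0.58) or Splice del 2 (0.57), and the C321fs call without control 3 (0.56) or C321fs 3 (0.52). The ratio of COL5A2 to COL3A1 per length within a library was 0.608 ± 0.0707 (SD, n = 3) in the control, 1.97 ± 0.292 in the Splice del line, 1.90 ± 0.129 in C321fs and 4.20 ± 0.785 in A333fs. The exact two-sided permutation p was 0.1 for each line against the control, which is the smallest that 3 against 3 libraries allow, and the ratio was chosen after the values were seen.

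COL5A1, the alpha1 chain of type V collagen, was at 0.441, 0.417 and 0.382 CPM in the control, 0.826, 0.473 and 0.697 in the Splice del line, 0.457, 0.520 and 0.810 in C321fs and 1.52, 1.24 and 1.35 in A333fs. Only the A333fs libraries stood clear of all others, with a log2 fold change of 1.72 ± 0.26 (SE) (adjusted p = 4.9e-05), while Splice del (0.69, adjusted p = 0.062) and C321fs (0.52, adjusted p = 0.17) did not pass. COL1A1 was at 48.2, 59.8 and 52.3 CPM in the control and 30.9, 31.4 and 27.97 in A333fs, a log2 fold change of -0.83 ± 0.09 (SE) (adjusted p = 2.0e-06) that shrank to -0.46 and lost its call after removal of the GC and length trend. In Splice del and C321fs its values were -0.26 and -0.35, within the fold limit.

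COL27A1 (chr9:114155545-114312516), which encodes the fibrillar type XXVII collagen, was at 5.84, 6.99 and 6.39 CPM in the control, 29.9, 25.97 and 27.8 in the Splice del line, 6.42, 7.80 and 7.71 in C321fs and 15.2, 14.7 and 10.3 in A333fs. Splice del was the highest line, A333fs lay between, and C321fs overlapped the control. Its log2 fold changes were 2.12 ± 0.13 (SE) (adjusted p = 7.4e-09) in the Splice del line, 1.06 ± 0.13 (SE) (adjusted p = 9.0e-06) in A333fs and 0.19 ± 0.14 (SE) (adjusted p = 0.29) in C321fs, and the first pair held after removal of the GC and length trend (2.32 and 1.45). COL11A1 (chr1:102876467-103108496), the alpha1 chain of type XI collagen, had 1, 1 and 1 fragments in the control libraries, 58, 56 and 66 in the Splice del line, 1, 4 and 1 in C321fs and 16, 13 and 34 in A333fs. It was thus all but absent from control and C321fs and present in every Splice del and A333fs library. Its level ratio to the control was 52.97 in Splice del (95% exact counting interval 17.8 to 259, adjusted p = 6.9e-07) and 19.5 in A333fs (6.37 to 97.0, adjusted p = 5.9e-05), with intervals that cover counting error only. COL6A3, a chain of the beaded-filament type VI collagen, had 5 fragments over the 3 control libraries, 23 in the Splice del line, 6 in C321fs and 27 in A333fs, and was not called (adjusted p = 0.032 in Splice del and 0.011 in A333fs).

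**Figure D2:**
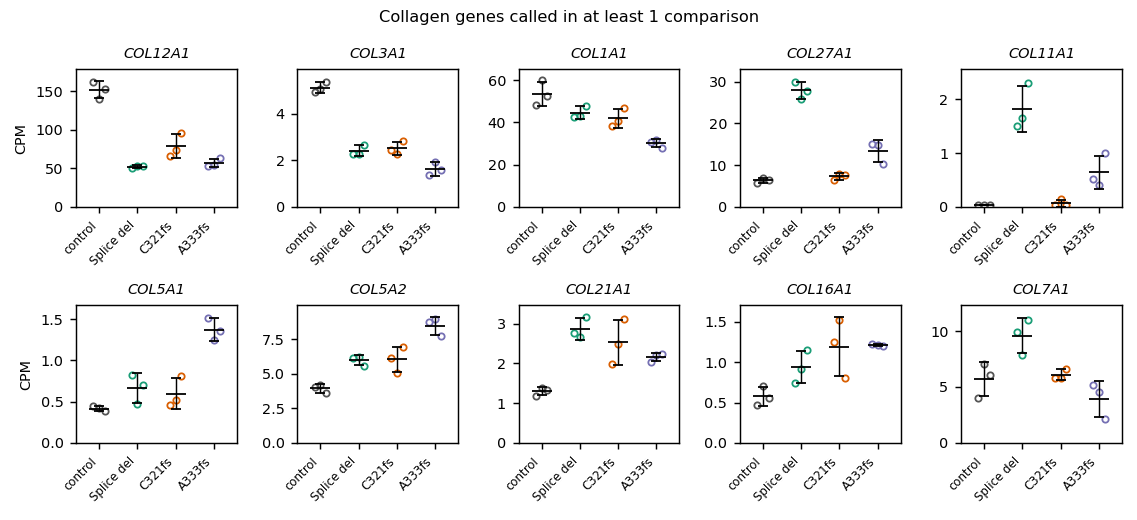
CPM (TMM-scaled, linear axes from 0 that differ between panels) of the 10 collagen genes called in at least 1 of 6 comparisons, by line. Circles are the 3 libraries of a line, horizontal bars the mean and whiskers the SD (n = 3); COL12A1 falls from a control mean of 152 to between 52.1 and 78.5, while COL27A1 and COL11A1 are raised in Splice del and A333fs only among the called changes from control.

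The collagens that bind to the surface of fibrils moved in both directions. COL12A1 (chr6:75084326-75205907), which encodes type XII collagen, was at 162, 141 and 153 CPM in the control, 50.2, 52.9 and 53.1 in the Splice del line, 65.96, 73.6 and 95.8 in C321fs and 52.8, 54.4 and 63.3 in A333fs. No mutant library reached the control, and C321fs was the least reduced. The log2 fold changes were -1.54 ± 0.11 (SE) (adjusted p = 3.6e-08) in the Splice del line, -0.95 ± 0.11 (SE) (adjusted p = 7.5e-06) in C321fs and -1.42 ± 0.11 (SE) (adjusted p = 7.0e-08) in A333fs, and after removal of the GC and length trend they were -1.67, -0.99 and -1.56.

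COL21A1 (chr6:56056590-56247580), which encodes type XXI collagen, rose from 1.19, 1.38 and 1.32 CPM in the control to 2.76, 2.66 and 3.17 in the Splice del line, 1.98, 2.50 and 3.11 in C321fs and 2.03, 2.20 and 2.23 in A333fs. No mutant library reached down to the control. Its log2 fold changes were 1.13 ± 0.17 (SE) (adjusted p = 5.7e-05), 0.96 ± 0.18 (SE) (adjusted p = 0.00044) and 0.73 ± 0.18 (SE) (adjusted p = 0.0025), the last of which lost its call after removal of the GC and length trend (0.46, adjusted p = 0.039). COL16A1, which encodes type XVI collagen, was low, with 0.475, 0.706 and 0.556 CPM in the control, 0.748, 0.916 and 1.15 in the Splice del line, 1.25, 1.53 and 0.810 in C321fs and 1.23, 1.21 and 1.20 in A333fs. It rose in C321fs by 1.03 ± 0.27 (SE) (adjusted p = 0.0047) and in A333fs by 1.06 ± 0.26 (SE) (adjusted p = 0.0027), and its Splice del value of 0.66 did not pass (adjusted p = 0.053). The COL16A1 call in C321fs was lost without control 1 (0.91), control 3 (1.00), C321fs 1 (0.99) or C321fs 2 (0.83), that in A333fs without control 1 (0.93) or control 3 (1.03), and that of COL21A1 in A333fs without control 1 (0.67). COL9A2 was at 33.6 ± 3.89 CPM (SD, n = 3) in the control and between 27.5 and 34.7 in the mutants. No comparison of it with the control passed.

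Of the basement membrane and anchoring collagens, COL4A5 was at 14.1, 14.6, 14.3 and 13.7 CPM in control, Splice del, C321fs and A333fs, with log2 fold changes between -0.04 and 0.05 from the control and standard errors of 0.10. COL4A6, which shares a promoter region with COL4A5 in opposite orientation, was at 1.05, 1.09 and 1.63 CPM in the control and 0.568, 0.650 and 0.940 in Splice del, a log2 fold change of -0.83 that did not pass (adjusted p = 0.018). COL4A4 lay at or below 0.486 CPM in every library, and COL4A3 had at most 5 fragments. COL7A1, which encodes the anchoring fibrils that tie the basement membrane to the stroma, was at 4.04, 7.06 and 6.11 CPM in the control, 9.93, 7.89 and 10.97 in the Splice del line, 5.84, 5.79 and 6.64 in C321fs and 5.20, 4.53 and 2.14 in A333fs. Splice del lay above the control and A333fs overlapped it, with wide spread in both groups, and neither passed against the control (adjusted p = 0.011 and 0.067) while A333fs against Splice del did (-1.29 ± 0.23 (SE) (adjusted p = 0.0011)). The Splice del value was called once the GC and length trend was removed (0.97, adjusted p = 0.00028).

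Of the 8 tested laminins, 1 was called in a comparison with the control. LAMA5, the alpha chain of laminin-511, was at 346, 386 and 430.1 CPM in the control, 348, 331 and 359 in the Splice del line, 296, 291 and 339 in C321fs and 256, 269.8 and 245 in A333fs. It was the laminin that passed both limits, in A333fs (-0.59 ± 0.08 (SE) (adjusted p = 1.0e-05)), and the call was lost under 8 of the alternatives, with a value of -0.08 (adjusted p = 0.31) once the GC and length trend was removed. It was also lost without control 3 (-0.51) or A333fs 3 (-0.56). LAMB2 passed the adjusted p but not the fold limit in C321fs (-0.53 ± 0.08 (SE) (adjusted p = 6.8e-05)) and A333fs (-0.45 ± 0.08 (SE) (adjusted p = 0.00013)), both lower. With the trend removed its values were -0.33 (adjusted p = 0.00011) and -0.11 (adjusted p = 0.11). LAMB1 passed it in A333fs alone among the comparisons with control, and was higher there (0.39 ± 0.07 (SE) (adjusted p = 0.00029)). LAMC1 stayed between 26.4 and 30.9 CPM in all lines. The log2 fold changes in A333fs were -0.29 ± 0.09 (SE) for LAMA3 and -0.06 ± 0.15 (SE) for LAMB3, neither of which was called, and -0.25 and 0.24 with the trend removed.

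Of the 7 tested beta integrins, 3 were higher and 1 lower in the Splice del line, 2 and 1 in C321fs, and 2 and 1 in A333fs. The shares of all tested genes were 6.21% and 4.53%, 4.63% and 2.26%, and 5.46% and 6.81% in the same order. ITGB6 (chr2:160099666-160200313), the beta chain of alphaVbeta6, an epithelial receptor known to activate latent TGF-beta, was at 1.29, 1.31 and 1.35 CPM in the control, 3.92, 4.67 and 4.04 in the Splice del line, 3.38, 3.61 and 4.34 in C321fs and 2.45, 3.32 and 3.23 in A333fs. Each mutant library was well above the control libraries, which differed little among themselves. The log2 fold changes were 1.67 ± 0.16 (SE) (adjusted p = 8.5e-07), 1.51 ± 0.16 (SE) (adjusted p = 5.6e-06) and 1.19 ± 0.17 (SE) (adjusted p = 2.3e-05), and 1.35, 1.23 and 0.86 after removal of the GC and length trend.

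ITGB8 (chr7:20331102-20415759), the beta chain of the other alphaV receptor for latent TGF-beta, was at 2.41, 2.37 and 2.29 CPM in the control, 8.13, 7.54 and 7.59 in the Splice del line, 3.07, 4.06 and 4.28 in C321fs and 5.29, 7.24 and 5.05 in A333fs. It was highest in Splice del and least raised in C321fs. Its log2 fold changes were 1.72 ± 0.15 (SE) (adjusted p = 3.8e-07) in the Splice del line, 0.68 ± 0.17 (SE) (adjusted p = 0.003) in C321fs and 1.31 ± 0.16 (SE) (adjusted p = 4.9e-06) in A333fs, and the C321fs call was lost after removal of the GC and length trend (0.41). That call was lost too without control 2 (0.69), control 3 (0.66), C321fs 2 (0.63) or C321fs 3 (0.59). An opposite-strand transcript shares 1.29% of its exon bases, and the counting did not use strand.

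ITGB4 (chr17:75721436-75757818), the partner of ITGA6 in hemidesmosomes, was at 179, 214 and 196 CPM in the control, 118, 122 and 141 in the Splice del line, 129, 120.1 and 134 in C321fs and 115, 117 and 133 in A333fs. The mutant lines overlapped each other and lay below the control. The log2 fold changes were -0.63 ± 0.08 (SE) (adjusted p = 1.3e-05), -0.62 ± 0.08 (SE) (adjusted p = 2.6e-05) and -0.69 ± 0.08 (SE) (adjusted p = 4.2e-06). These 3 calls were lost with upper-quartile scaling, with library totals alone and after removal of the GC and length trend, where the values were -0.44, -0.41 and -0.27, still lower than the control in each line. Leaving out control 2 ended the calls in Splice del and C321fs (-0.56 in each), as did leaving out Splice del 1 (-0.57) and C321fs 2 (-0.58), respectively.

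ITGA6 itself was at 43.5, 41.5 and 44.2 CPM in the control, 61.04, 62.3 and 60.5 in the Splice del line, 41.8, 48.6 and 51.97 in C321fs and 53.2, 57.9 and 58.8 in A333fs, with log2 fold changes of 0.51 ± 0.07 (SE) (adjusted p = 2.7e-05), 0.14 ± 0.07 (SE) (adjusted p = 0.12) and 0.40 ± 0.07 (SE) (adjusted p = 0.00021), within the fold limit. Within a library, the ratio of ITGB4 to ITGA6 per length was 4.36 ± 0.506 (SD, n = 3) in the control, 1.98 ± 0.217 in the Splice del line, 2.59 ± 0.311 in C321fs and 2.05 ± 0.119 in A333fs. Control and mutant libraries did not overlap in this ratio. The exact two-sided permutation p was 0.1 for each line, the smallest possible here, and the pair was chosen after its values were seen. Both genes differ in exon GC content, 63.8% for ITGB4 and 42.5% for ITGA6, and after removal of the GC and length trend the ITGA6 values were 0.24, -0.08 and 0.10.

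**Figure D3:**
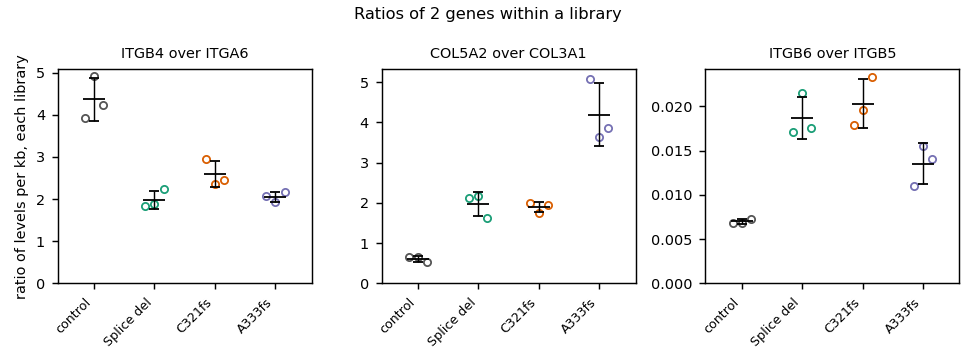
Ratio of the per-length levels of 2 genes within each library, for ITGB4 over ITGA6, COL5A2 over COL3A1 and ITGB6 over ITGB5, by line (circles, libraries; bars and whiskers, mean and SD, n = 3; linear axes from 0). In each panel the 3 control libraries stand apart from the 9 mutant libraries: above them for ITGB4 over ITGA6 and below them in the other ratios.

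The abundant chains ITGB1, the common partner of the collagen and laminin receptors, ITGB5 and ITGAV moved by less than the fold limit. ITGB1 was at 163, 181 and 185 CPM in the control and 244, 265 and 255 in A333fs, with log2 fold changes of 0.33 ± 0.07 (SE) (adjusted p = 0.00074) in the Splice del line, 0.32 ± 0.07 (SE) (adjusted p = 0.0011) in C321fs and 0.53 ± 0.07 (SE) (adjusted p = 8.9e-06) in A333fs. After removal of the GC and length trend these became 0.05, 0.07 and 0.22. ITGAV, the alpha partner of ITGB5, ITGB6 and ITGB8, gave 0.42, 0.36 and 0.47 (adjusted p = 0.00015, 0.00063 and 3.7e-05), and 0.09, 0.08 and 0.18 with that trend removed (adjusted p = 0.15, 0.2 and 0.0078). ITGB5 gave 0.26 in Splice del (adjusted p = 0.00029), -0.02 in C321fs (adjusted p = 0.78) and 0.24 in A333fs (adjusted p = 0.00049). With the trend removed the ITGB5 values did not shrink, at 0.33, 0.09 and 0.39 (adjusted p = 4.2e-07, 0.057 and 1.0e-07). Despite its rise, ITGB6 remained far below ITGB5, at a per-length ratio of 0.00700 ± 0.000266 (SD, n = 3) in the control and 0.0187 ± 0.00238, 0.0203 ± 0.00278 and 0.0135 ± 0.00234 in Splice del, C321fs and A333fs. ITGB7, a chain of lymphocyte and intraepithelial receptors, rose in Splice del, from 1.19, 1.19 and 1.22 to 2.09, 2.28 and 2.23 CPM (0.87 ± 0.16 (SE) (adjusted p = 0.00031)). It stood at 1.86, 1.42 and 1.52 CPM in C321fs and 1.36, 1.37 and 1.06 in A333fs, which did not pass (adjusted p = 0.049 and 0.77).

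**Figure D4:**
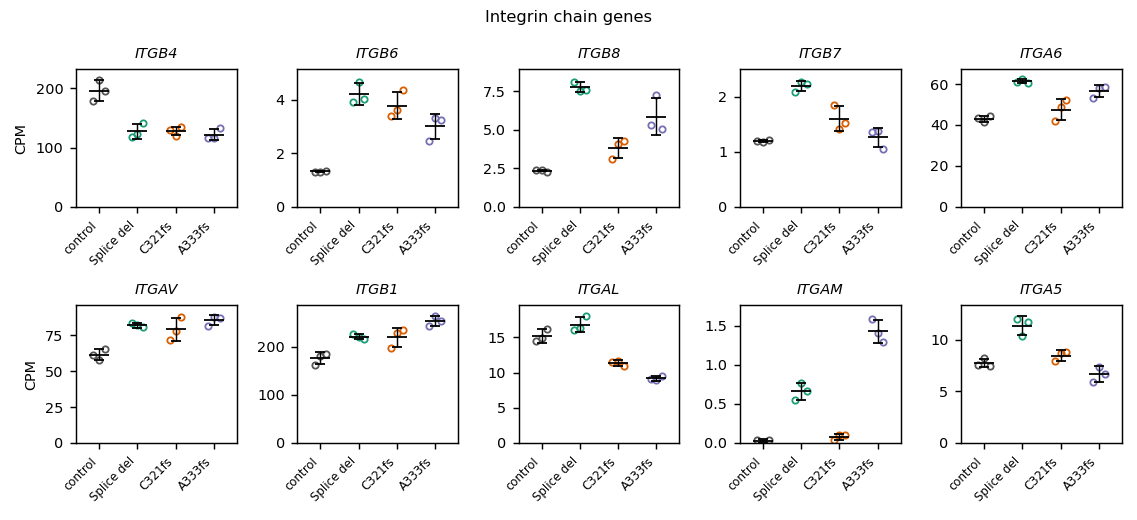
CPM (TMM-scaled, linear axes from 0 that differ between panels) of 10 integrin chain genes by line, with circles for the 3 libraries, bars for the mean and whiskers for the SD (n = 3). ITGB4 is lower and ITGB6 and ITGB8 are higher in the 3 mutant lines, and ITGAM is raised in Splice del and A333fs to means of 0.657 and 1.43 CPM.

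Among the alpha chains the leukocyte receptors ITGAM and ITGAL stood out. ITGAM (chr16:31259967-31332892), the CD11b chain of myeloid cells, had 1, 0 and 1 fragments in the control libraries, 21, 26 and 19 in the Splice del line, 1, 3 and 3 in C321fs and 49, 44 and 44 in A333fs. It was present in every Splice del and A333fs library and at 0 to 3 fragments elsewhere. The level ratio to the control was 29.1 in Splice del (95% exact counting interval 7.75 to 246, adjusted p = 4.8e-06) and 63.6 in A333fs (17.3 to 530.1, adjusted p = 9.6e-08). Its beta partner ITGB2 was at 0.373, 0.417 and 0.313 CPM in the control, 0.490, 0.443 and 0.453 in the Splice del line, 0.396, 0.624 and 0.389 in C321fs and 0.0968, 0.160 and 0.264 in A333fs, and did not pass in any comparison with the control (lowest adjusted p = 0.032, in A333fs). ITGAX, its neighbour on chromosome 16, had at most 1 fragment.

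Of 10 leukocyte markers read beside it, 3 had no fragment in any library, 4 had at most 9, and 3 were tested. CD14, among the tested ones, was higher in Splice del (1.87 ± 0.18 (SE) (adjusted p = 1.0e-06)) and A333fs (0.93 ± 0.20 (SE) (adjusted p = 0.001)), and the summed level of the list was 6.20 to 8.23 TPM in the control, 9.59 to 12.0 in the Splice del line, 8.21 to 9.43 in C321fs and 7.72 to 9.21 in A333fs. No tested marker of the list other than CD14 was called against the control. The median log2 fold change of the 3 tested markers was -0.08 for A333fs, 0.20 for C321fs and 0.05 for Splice del. PTPRC, which marks all leukocytes, was at 0 fragments throughout. ITGAL, the CD11a chain of lymphocytes, fell in A333fs, from 14.5, 14.9 and 16.3 to 9.10, 8.87 and 9.51 CPM (-0.73 ± 0.08 (SE) (adjusted p = 1.9e-06)), with 15.997, 16.4 and 18.01 in Splice del and 11.5, 11.6 and 10.9 in C321fs. The A333fs libraries lay below all others, and its value after removal of the GC and length trend, -0.55, was inside the fold limit.

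Of the epithelial collagen and laminin receptors, ITGA2 gave log2 fold changes of 0.08, 0.13 and 0.05, each with an SE of 0.08, and ITGA3 gave -0.06, -0.26 and -0.30, the last pair with adjusted p = 0.0036 and 0.00099. After removal of the GC and length trend ITGA2 turned to -0.21, -0.09 and -0.24 (adjusted p = 0.0053, 0.21 and 0.0026). ITGA3 became 0.11, -0.07 and 0.06, with no adjusted p below 0.068. ITGA5, the fibronectin receptor chain, was at 7.53, 8.21 and 7.47 CPM in the control, 12.05, 10.4 and 11.8 in the Splice del line, 7.91, 8.70 and 8.84 in C321fs and 5.91, 7.40 and 6.72 in A333fs. Splice del libraries were above and A333fs libraries below the control, with log2 fold changes of 0.56 ± 0.10 (SE) (adjusted p = 0.00016) and -0.21 ± 0.10 (SE) (adjusted p = 0.081), neither of them called, while A333fs against Splice del was called at -0.77 ± 0.10 (SE) (adjusted p = 4.9e-05). The trend-removed values were 0.69 in Splice del (adjusted p = 4.2e-06), which was called, and 0.06 in A333fs.

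The second question was whether the mutant lines differed from each other. Splice del exceeded C321fs in 5 members and was lower in 1, where 1.76% and 0.879% of all tested genes were called. A333fs exceeded C321fs in 5 and was lower in 1, against 2.47% and 3.08% of all genes. A333fs exceeded Splice del in 2 and was lower in 6, against 1.03% and 1.97%. COL27A1 and COL11A1 were called in all 3 of these comparisons, ordered Splice del, A333fs, C321fs, and ITGAM was called in all 3 in the order A333fs, Splice del, C321fs. COL12A1 was lower in Splice del than in C321fs, and COL3A1 was lower in A333fs than in C321fs. COL5A1 was higher in A333fs than in either other mutant, and ITGB7, ITGA5, ITGAL and COL7A1 were lower in A333fs than in Splice del. ITGA10 was called higher in Splice del than in C321fs (0.60 ± 0.14 (SE) (adjusted p = 0.0083)), a call lost in 9 of 12 fits without 1 library (0.56 to 0.65). ITGB8 was higher in Splice del and in A333fs than in C321fs, and ITGB6 was called in none of the 3, with differences of 0.16 ± 0.13 (SE) for Splice del less C321fs, -0.33 ± 0.14 (SE) for A333fs less C321fs and -0.49 ± 0.14 (SE) for A333fs less Splice del.

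Several of these calls between mutants were lost without a single library. For Splice del against C321fs this held for COL12A1 without Splice del 1 (-0.57) or C321fs 3 (-0.42). For A333fs against C321fs it held for COL3A1 without C321fs 1, C321fs 3, A333fs 1 or A333fs 3 (-0.65, -0.54, -0.51 and -0.61), ITGB8 without C321fs 1 (0.49) or A333fs 2 (0.48), and COL5A1 without C321fs 1 (1.03). For A333fs against Splice del it held for COL11A1 without Splice del 3 (-1.27) or A333fs 1 (-1.32), and ITGAM without Splice del 1, Splice del 3 or A333fs 1 (0.98, 1.13 and 1.04). In that comparison it also held for COL5A1 without Splice del 2, Splice del 3, A333fs 1 or A333fs 3 (0.83, 1.05, 0.95 and 1.04) and ITGB7 without Splice del 2 (-0.77) or A333fs 3 (-0.68).

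GC content moved with several of these results. The tested members had a median exon GC content of 54.8%, and the tested collagens 60.2%, against 49.6% for all tested genes. Removing from each library its loess trend of counts on GC content and exon length gave 9 members higher in A333fs, with COL6A3 in and COL21A1 out, and reduced those lower from 6 to 2, COL12A1 and COL3A1. Over all tested genes the calls in A333fs went from 1815, of which 44.5% were higher, to 800, of which 71.4% were higher. The calls lost, ITGB4, LAMA5, COL1A1 and ITGAL, fell on genes of 63.8%, 66.4%, 61.5% and 55.3% GC. In Splice del the counts became 10 higher and 2 lower, with ITGB4 and COL5A2 out and COL7A1 (0.97), COL9A3 (0.79) and ITGA5 (0.69) in as higher. In C321fs they became 4 and 2. Over all tested genes the calls in Splice del went from 1588, of which 57.8% were higher, to 1031, of which 66.3% were higher. Those in C321fs went from 1018, of which 67.2% were higher, to 656, of which 71.8% were higher. The log2 fold changes of COL12A1, COL3A1, COL27A1, COL11A1, ITGAM and ITGB6 that were called against the control kept their calls.

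**Figure D5:**
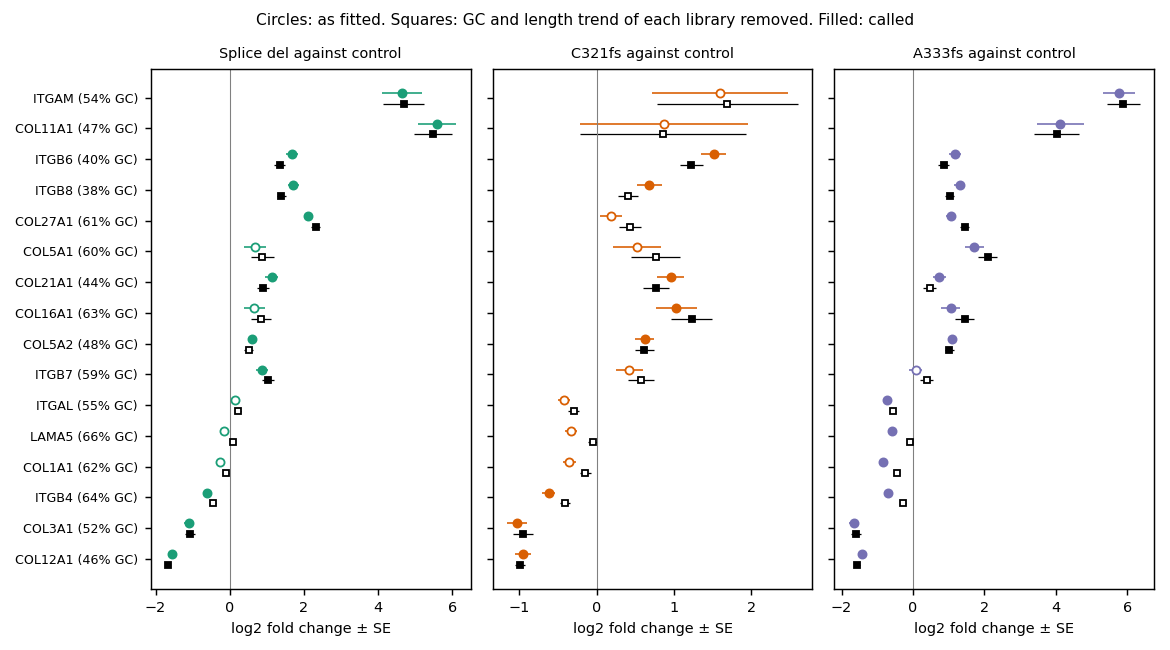
Log2 fold change against control ± SE of the 16 members called in at least 1 of the 3 comparisons with control, in 1 panel per mutant with its own x axis, with exon GC content beside each name. Circles are the values as fitted, squares those with each library's GC and length trend removed, and filled symbols are called (adjusted p below 0.01 and fold over 1.5): in A333fs the circles of ITGAL, LAMA5, COL1A1 and ITGB4 are filled and their squares are open.

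Other genes of collagen handling and matrix adhesion were read from lists written with earlier results of these data known. The counts of calls in these lists stand beside the shares of all tested genes. Called higher were 6.21% in the Splice del line, 4.63% in C321fs and 5.46% in A333fs, and called lower were 4.53%, 2.26% and 6.81%. Of 28 collagen-modifying enzymes and chaperones, 21 were tested, and 1 was higher in the Splice del line, 4 in C321fs and 2 in A333fs, with 2 lower in A333fs. P4HA1, a prolyl hydroxylase subunit, was at 29.3, 41.2, 51.3 and 36.6 CPM in control, Splice del, C321fs and A333fs and was called in C321fs (0.81 ± 0.06 (SE) (adjusted p = 3.3e-07)), as was the lysyl hydroxylase PLOD2 (0.67 ± 0.08 (SE) (adjusted p = 8.9e-06)). P3H2, a prolyl 3-hydroxylase, rose in A333fs from 0.0891 ± 0.0173 to 0.721 ± 0.141 CPM (SD, n = 3), by 2.96 ± 0.42 (SE) (adjusted p = 2.2e-05). P3H3, of the same family, fell there, with a log2 fold change of -0.81 ± 0.13 (SE) (adjusted p = 9.0e-05). After removal of the GC and length trend, 1 gene of this list was higher and 0 lower in A333fs, so P3H3 lost its call. In Splice del 1 and in C321fs 3 were then higher.

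Of 25 other basement membrane and matrix glycoproteins, 13 were tested, with 6 higher and 1 lower in the Splice del line, 3 and 2 in C321fs and 5 and 2 in A333fs. After removal of the GC and length trend these counts were 6 and 1, 4 and 0, and 5 and 0. NTN4, a laminin-related netrin of basement membranes, was raised in Splice del and A333fs, at 19.8, 20.3 and 22.1 CPM in the control, 57.6, 55.2 and 54.2 in the Splice del line, 19.8, 22.1 and 19.9 in C321fs and 81.5, 87.004 and 81.8 in A333fs. Its log2 fold changes were 1.42 ± 0.06 (SE) (adjusted p = 2.2e-10) in Splice del and 2.01 ± 0.06 (SE) (adjusted p = 2.9e-12) in A333fs, and -0.01 ± 0.07 (SE) (adjusted p = 0.91) in C321fs. MATN2 and NPNT, a matrilin and the integrin ligand nephronectin, were higher in all 3 lines, with log2 fold changes of 1.24, 0.90 and 1.04 for MATN2 and 1.36, 1.21 and 1.27 for NPNT (highest adjusted p = 2.7e-07). PXDN, the peroxidase that crosslinks type IV collagen, rose in Splice del by 0.67 ± 0.06 (SE) (adjusted p = 5.0e-07).

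Among 19 other collagen and laminin receptors, 18 were tested, with 2 higher and 1 lower in the Splice del line, 1 and 1 in C321fs and 3 higher in A333fs. CD36, a receptor for collagen and thrombospondin, rose in all 3 lines, in C321fs from 2.27, 2.60 and 3.13 to 19.8, 21.4 and 23.3 CPM (3.01 ± 0.11 (SE) (adjusted p = 2.8e-11)), with 4.23, 4.17 and 3.94 in Splice del (0.63 ± 0.13 (SE) (adjusted p = 0.00057)) and 8.68, 8.97 and 7.98 in A333fs (1.68 ± 0.12 (SE) (adjusted p = 2.1e-08)). After removal of the GC and length trend, 0 of these receptors were called higher in Splice del. The CD36 call in that line was thus lost, and the counts in C321fs and A333fs stayed the same. SDC2 and CD47 rose in A333fs by 1.32 ± 0.05 (SE) (adjusted p = 7.2e-11) and 0.92 ± 0.05 (SE) (adjusted p = 8.2e-10). RPSA, a ribosomal protein also known as a laminin receptor, whose many near-identical pseudogene copies make its count uncertain, fell in Splice del (-0.86 ± 0.07 (SE) (adjusted p = 8.7e-08)) and C321fs (-0.61 ± 0.07 (SE) (adjusted p = 5.5e-06)).

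The 40 integrin adaptors and focal adhesion proteins, of which 35 were tested, had median log2 fold changes of -0.27 in the Splice del line, -0.27 in C321fs and -0.34 in A333fs. Calls among them numbered 2 lower in the Splice del line, 6 lower in C321fs, and 4 lower with 1 higher in A333fs. FLNA (filamin A) was lower in all 3 lines, at 532, 285, 334 and 352 CPM in control, Splice del, C321fs and A333fs, and TLN1 (talin) was called lower in C321fs (-0.84 ± 0.07 (SE) (adjusted p = 1.0e-06)). TNS3 (tensin 3) fell in C321fs (-0.64 ± 0.06 (SE) (adjusted p = 2.2e-06)) and RSU1 rose in A333fs (0.63 ± 0.06 (SE) (adjusted p = 5.0e-07)). After removal of the GC and length trend the medians of the list were -0.22, -0.21 and -0.11, where the median of all genes was -0.05, -0.04 and -0.05, and its calls in A333fs became 1 lower and 1 higher.

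Markers of fibroblasts, which make most type I and III collagen in tissue, were read beside the collagens. Of 14, 6 were tested, and 4 were higher in the Splice del line, 1 in C321fs and 5 in A333fs. DCN, the collagen-binding proteoglycan decorin, had 3, 1 and 2 fragments in the control, 216, 225 and 164 in the Splice del line, 1, 0 and 1 in C321fs and 383, 419 and 378 in A333fs. LUM, another fibril-binding proteoglycan, rose in Splice del by 3.53 ± 0.37 (SE) (adjusted p = 2.2e-06) and in A333fs by 4.87 ± 0.32 (SE) (adjusted p = 1.3e-08). VIM was called in 5 and FBLN1 in 2 of the 6 comparisons between lines. In Splice del, 1 tested marker of the list passed the adjusted p limit as lower than control, but not the fold limit. The summed level of the list was 109 to 112 TPM in the control, 114 to 124 in the Splice del line, 123 to 142 in C321fs and 133 to 149.97 in A333fs. Of its members, 7, among them the defining PDGFRA, PDGFRB and FAP, had at most 3 fragments in every library. DCN was thus present in the lines in which COL11A1 and ITGAM were present, and the part of any other cell type in these results was not tested.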

How the data were processed

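The authors deposited whole-number counts per gene for 12 RNA-seq libraries (paired-end, NEBNext Ultra II), made with featureCounts 1.6.4 on hg38. Per the file header, fragments were counted without strand, and fragments assigned to several places or genes were not counted; the labels name HISAT2 as the aligner, whereas file paths in the header name STAR.

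Genes were filtered with filterByExpr by line, scaled by TMM and fitted with edgeR 4.0.16 (R 4.3.3) in 1 quasi-likelihood fit of 12 libraries. Benjamini-Hochberg adjustment covered all 14789 tested genes, and a call needed an adjusted p below 0.01 and a fold over 1.5. The study used DESeq2, run here as an alternative (1.42.0). TPM used exon union lengths of the count table. Named members were those called in any of 6 comparisons (full values for up to 24), the 3 of highest TPM in each family, chains of epithelial laminins and collagen IV, and the epithelial integrin chains; from each related list other than the cell type markers, up to 4 called genes of smallest adjusted p were named. The gene ratios, COL6A3, the type IX chains, ITGB2, ITGAX and the marker genes were added with their values known. The values of 1 tested member are not reported here. The members and lists were chosen with earlier results of these data known. The scripts were tested on simulated data. Same-numbered libraries were not paired (mean correlation of deviations -0.00915 over 18 pairs). The study calls its RNA-seq replicates biological. The labels do not say that libraries came from separate cultures, so the p-values may measure technical spread only. Alternatives were other scalings and filters, DESeq2, a replicate block, a loess trend on GC content and length (span 0.3), fits of 2 lines and fits without 1 library.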

Additional observations from a re-analysis of the deposited data

Results flagged for a closer look

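The results below were picked out because the effects of 2 mutants against the same control differed in a test of the difference itself (edgeR's quasi-likelihood test, Benjamini-Hochberg adjusted p below 0.01 and fold over 1.5). The values are log2 differences between the mutant lines, and their causes were not tested.

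Splice del differed from C321fs in COL11A1 by 4.71 (adjusted p = 2.8e-06), ITGA10 by 0.60 (adjusted p = 0.0083), ITGAM by 3.04 (adjusted p = 0.00011). In the same comparison it differed in COL12A1 by -0.59 (adjusted p = 0.0015), ITGB8 by 1.03 (adjusted p = 9.7e-05) and COL27A1 by 1.93 (adjusted p = 3.0e-08).

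A333fs differed from C321fs in COL11A1 by 3.25 (adjusted p = 0.00048), ITGAM by 4.16 (adjusted p = 3.9e-07), COL3A1 by -0.63 (adjusted p = 0.0067). In the same comparison it differed in ITGB8 by 0.63 (adjusted p = 0.0045), COL27A1 by 0.87 (adjusted p = 0.00015) and COL5A1 by 1.20 (adjusted p = 0.0018).

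A333fs differed from Splice del in COL11A1 by -1.46 (adjusted p = 0.0019), ITGB7 by -0.80 (adjusted p = 0.002), ITGA5 by -0.77 (adjusted p = 4.9e-05). In the same comparison it differed in ITGAL by -0.87 (adjusted p = 1.6e-06), ITGAM by 1.12 (adjusted p = 0.0024), COL7A1 by -1.29 (adjusted p = 0.0011), COL27A1 by -1.06 (adjusted p = 1.8e-05) and COL5A1 by 1.03 (adjusted p = 0.0052).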

How the results depend on the processing

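No called log2 fold change of a member changed sign under an alternative, but values that were not called did. Among those that turned with the GC and length trend removed were ITGA2 in all 3 lines, ITGA3 (0.11) and LAMA5 (0.08) in Splice del, and ITGA6 in C321fs (-0.08). In A333fs they included ITGA3 (0.06), ITGA5 (0.06) and LAMB3 (0.24), and the median of the members there went from -0.02 to 0.14. Other uncalled values near 0 changed sign with the scaling or without a library. With library totals alone, members higher than control numbered 13 in Splice del and 14 in A333fs, members lower in A333fs 3, those lower in Splice del than C321fs 0, and those lower in A333fs than C321fs 2. This scaling moved the all-gene median to 0.22, 0.19 and 0.16 in Splice del, C321fs and A333fs, and the share of calls that were higher from 57.8%, 67.2% and 44.5% to 92.2%, 93.2% and 80.2% (79.1%, 86.3% and 73.7% with upper-quartile scaling). With the GC and length trend removed, 2 members were lower in A333fs than control, and 2 with the replicate block as well. With at least 10 counts in every library, which left COL11A1 and ITGAM untested, Splice del exceeded C321fs in 3, A333fs exceeded C321fs in 3 and A333fs exceeded Splice del in 1. Without the filter, A333fs was below C321fs in 2. DESeq2 gave 0 members lower in A333fs than C321fs and 0 higher in A333fs than Splice del, and the fit of the 2 lines alone gave 0 for the first. With the replicate block, 28 members differed among the 4 lines and 0 were lower in Splice del than C321fs (the COL12A1 call); the shared numbers did not pair the libraries. Leaving out 1 library gave 7 to 10 higher and 2 to 4 lower in Splice del, 2 to 5 and 2 to 4 in C321fs (2 without control 3, which lost COL5A2, COL16A1 and ITGB8; 3 without C321fs 2 or C321fs 3), 7 to 11 and 5 to 7 in A333fs, 4 to 5 and 0 to 1 for Splice del against C321fs (0 without Splice del 1 or C321fs 3), 3 to 6 and 0 to 1 for A333fs against C321fs (3 and 0 without C321fs 1, 0 lower without C321fs 3), 0 to 2 and 5 to 7 for A333fs against Splice del (0 without Splice del 3 or A333fs 1), and 27 to 30 for any difference. The ITGB4 calls in Splice del and C321fs were lost without control 2, and each without a library of its own line. Members with few fragments are limited by depth.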
